A study of Rattus norvegicus with 18 samples.

Results

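The immediate early transcription factors described here are 10 genes, Fos, Fosb, Fosl1, Fosl2, Jun, Junb, Jund, Egr1, Atf3 and Ier2, taken by name from the 32116 genes of a table of rat kidney RNA levels. RNA of whole rat kidneys was sequenced in 18 libraries, 6 in each of 3 groups. NC kidneys had no treatment, CKD kidneys had adenine (a daily dose of 100 mg per kg), and SZ kidneys had that adenine dose together with SZ-A (a daily dose of 300 mg per kg). The sources used here do not give strain, sex, age, length of treatment or the nature of SZ-A. Whether every library stands for its own animal is not said in the labels, so the p-values refer to variation among libraries, some of which may be technical.

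Immediate early genes are transcribed within minutes of a stimulus, from factors already present in the cell, and their mRNAs are short-lived. FOS proteins bind DNA as dimers with JUN proteins, and the pair is called AP-1. EGR1 is a zinc finger factor, ATF3 is a stress-induced factor that pairs with JUN proteins and often represses, and IER2 is a nuclear protein induced in the same wave. In the kidney these genes are known to respond to ischaemia, stretch, growth factors and toxic injury, and also to the handling of tissue at collection.

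Levels are FPKM (fragments scaled to gene length and to the library size the authors used), so they can be compared between genes. Recovered depth ran from 15354358 to 18532375 reads per library. A gene was tested where it reached 1 FPKM in at least 6 of the 18 libraries, and called at an adjusted p under 0.05 from limma on log2(FPKM + 1), adjusted over all 13851 genes tested. CKD 2, CKD 5 and SZ 3 stood apart in how values follow gene length. The deviation of log2 level from a gene's mean there moved by -0.21, -0.31 and -0.25 for each doubling of gene length. In the others it moved by -0.10 to 0.11. Calls of members that change without CKD 2, CKD 5 and SZ 3 are given both ways. Proximal tubule markers summed to between 3810 and 4567 FPKM in NC, while 10 markers of adrenal, fat, urothelium and muscle summed to between 4.21 and 9.95 FPKM in the 18 libraries.

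Of the 10 members, 9 passed the filter. Junb, which encodes a JUN protein, is listed at 0 in all 18 libraries and is classed as a pseudogene in the deposited table, as are 726 genes of which 407 are at 0 throughout. Eef1a1, a translation factor gene that cells express strongly, is listed at no more than 0.408 FPKM in the same table, so nothing is read from the zeros of Junb. Fosl1 reached 1 FPKM in 0 NC, 5 CKD and 2 SZ libraries and Fosb in 3, 5 and 0. Fosl1 therefore passed the filter through CKD and SZ and had to differ from NC, and Fosb passed through NC and CKD and not SZ. The differences of Fosl1 from NC, and those of Fosb between SZ and the other groups, are given as a description with no p. Member counts of the main fit are also given without these 2 genes. Fosl1 overlaps Ccdc85b on the opposite strand, which is listed at 0 in all 18 libraries.

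By the table's coordinates (mRatBN7.2) Fos lies on chromosome 6 from 105121170 to 105124036, Egr1 on chromosome 18 from 26462981 to 26466766, Atf3 on chromosome 13 from 102751321 to 102764631, Jund on chromosome 16 from 18734122 to 18735799 and Ier2 on chromosome 19 from 23494184 to 23499211. Start regions of 7 of the 10 members, from 250 bases before the start to 50 after it, were found in RefSeq (build GRCr8), and none was matched for Fos, Jun and Atf3. The regions of 3 members are shown because these genes behaved differently between libraries: within NC, Egr1 varied most of the members, Jund less than all other tested members but Fosl1, and Ier2 between these. Capitals mark the motifs found, each read 5' to 3' along the gene. Egr1 is at chr18:26736828-26737127 on the plus strand, Ier2 at chr19:40399123-40399422 on the plus strand and Jund at chr16:18769722-18770021 on the minus strand.
Egr1: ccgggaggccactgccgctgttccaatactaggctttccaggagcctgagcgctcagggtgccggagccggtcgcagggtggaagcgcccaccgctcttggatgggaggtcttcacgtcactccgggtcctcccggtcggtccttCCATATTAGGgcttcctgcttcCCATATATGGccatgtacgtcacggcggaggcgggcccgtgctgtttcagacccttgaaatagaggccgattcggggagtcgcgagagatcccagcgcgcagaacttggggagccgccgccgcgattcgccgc
Ier2: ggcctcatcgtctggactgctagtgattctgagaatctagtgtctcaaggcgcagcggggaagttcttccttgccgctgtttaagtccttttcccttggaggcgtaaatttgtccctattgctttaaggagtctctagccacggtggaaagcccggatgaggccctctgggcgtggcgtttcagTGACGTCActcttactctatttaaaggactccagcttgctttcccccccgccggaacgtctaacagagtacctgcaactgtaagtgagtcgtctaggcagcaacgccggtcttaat
Jund: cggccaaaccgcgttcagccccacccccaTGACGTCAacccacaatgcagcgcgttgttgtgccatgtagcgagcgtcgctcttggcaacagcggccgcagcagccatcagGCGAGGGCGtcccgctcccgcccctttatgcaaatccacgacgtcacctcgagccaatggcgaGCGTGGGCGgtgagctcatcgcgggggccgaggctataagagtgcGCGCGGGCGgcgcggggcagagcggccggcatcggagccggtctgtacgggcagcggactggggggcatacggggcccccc

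The motifs searched on both strands were the CArG box that serum response factor binds, the cAMP response element TGACGTCA, the AP-1 site TGANTCA, the EGR site GCGNGGGCG and the TATA box TATAAA. The first 2 do not overlap any other motif searched in these 3 regions. Egr1 held 2 CArG boxes, from -105 to -96 and from -83 to -74 with the first base of the gene as 0, and 1.64% of 33469 rat start regions held at least 1. Ier2 and Jund each held 1 cAMP response element, at -66 to -59 and at -221 to -214, a motif in 1.83% of the regions. Jund and Fosl2 also held 3 and 2 EGR sites (4.98% of regions), Fosb and Junb each 1 TATA box (14.2%), and 0 of the 7 members an AP-1 site (7.33%). These matches describe letters in the window.

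What adenine changed was read from CKD against NC. Atf3, Fosl2, Jund and Ier2 rose, Fosl1 was called higher but had to differ by the filter, and Fos, Fosb, Jun and Egr1 did not pass the test. Without Fosb and Fosl1, 4 of 7 members were called higher and 0 lower (5 of 9 with them), beside 24.4% of all genes tested called higher and 26.0% called lower. At an unadjusted p under 0.05, 4 of the 7 passed, beside 56.8% of all genes. The log2 fold changes of the 7 were all above 0, with a median of 1.07, against a median of -0.04 over all genes. In whole-kidney RNA, more cells that carry a transcript and more transcript per cell cannot be told apart.

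Atf3 lay between 1.48 and 20.6 FPKM in NC (median 4.30), between 22.2 and 77.5 in CKD (median 45.8) and between 7.32 and 25.3 in SZ (median 18.2). Every CKD library was above every NC library, the highest NC value being that of NC 6. Means were 7.07 FPKM in NC (SD 7.16, n = 6) and 47.5 FPKM in CKD (SD 23.3, n = 6), which gave a log2 difference of 2.83 (SE 0.45, limma adjusted p = 5.1e-05). Atf3 was the 1 member of the 7 without Fosb and Fosl1 that stood wholly higher, beside 14.2% of all genes.

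**Figure D1:**
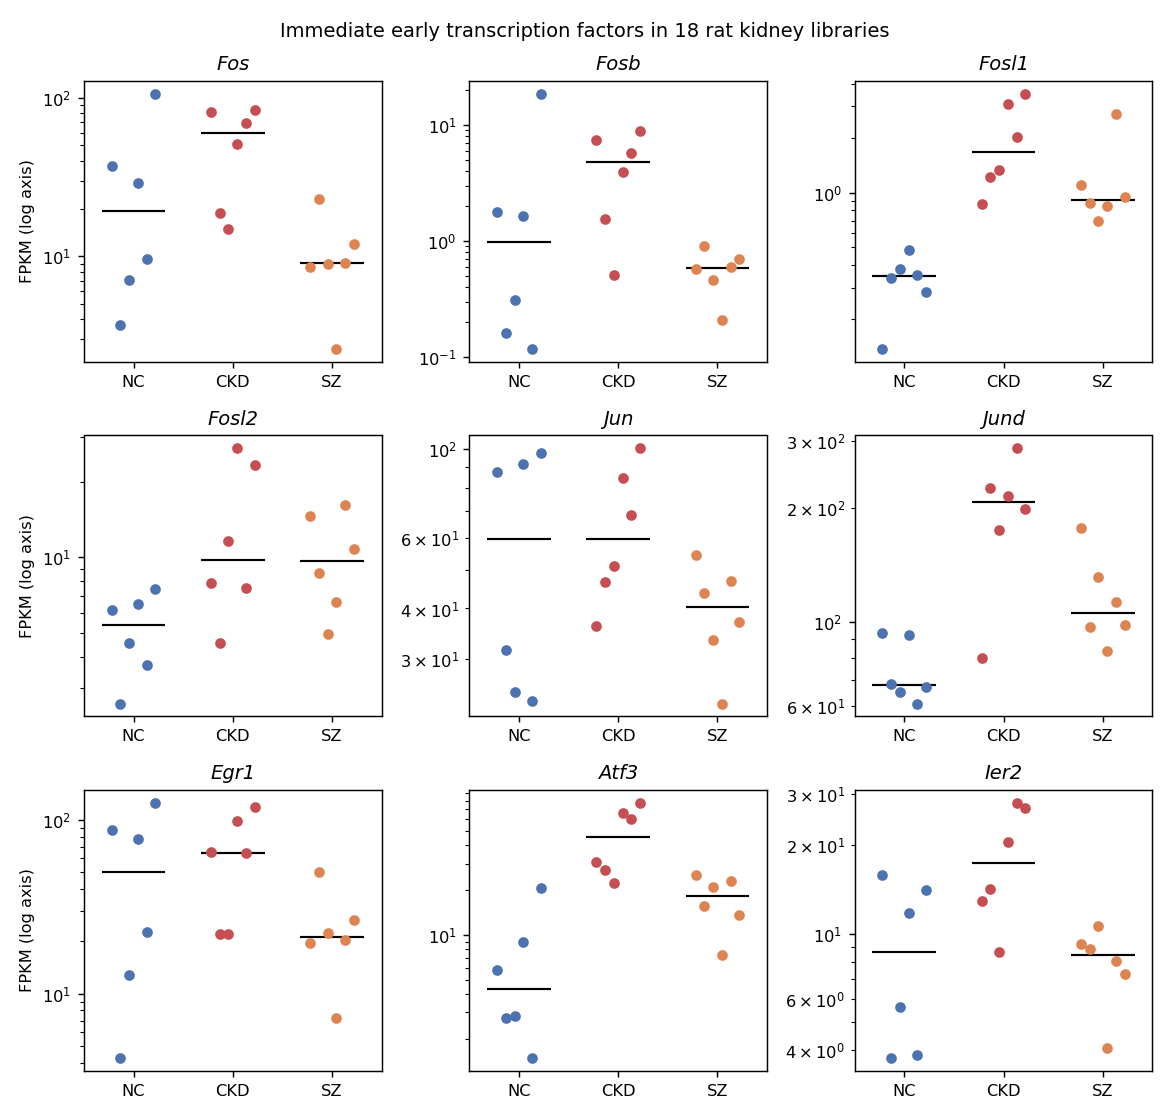
FPKM of the 9 members with a value above 0, on log axes that differ between panels, with 1 point per library, libraries 1 to 6 from left to right, and a line at the group median. Atf3 and Fosl1 are apart between NC and CKD, while Fos and Egr1 in NC span the whole range of the other groups or nearly so.

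Jund encodes the JUN protein that is usually made constitutively, and by median it was the most abundant member in each group. Its level was between 60.8 and 93.1 FPKM in NC (median 67.9), between 80.2 and 287 in CKD (median 207) and between 83.8 and 177 in SZ (median 106). CKD 1 lay at 80.2, within the NC range, and the other 5 CKD libraries at 174 or more, above every NC library. The log2 fold change was 1.31 (SE 0.24, limma adjusted p = 0.00022). Without CKD 2, CKD 5 and SZ 3 it was 1.08 (limma adjusted p = 0.0027).

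Among the FOS family, Fosl1 and Fosl2 encode FRA-1 and FRA-2, which are made later and last longer than FOS. Fosl1 was low throughout, from 0.137 to 0.481 FPKM in NC, from 0.862 to 3.52 in CKD and from 0.699 to 2.72 in SZ. Its log2 fold change in CKD against NC was 1.11 (SE 0.21), on a scale that understates changes at such levels and for a gene that the filter admitted only through its treated libraries. Fosl2 was between 2.60 and 7.43 FPKM in NC (median 5.36) and between 4.54 and 27.2 in CKD (median 9.76), and the groups overlapped. CKD 4 and CKD 6 were its highest libraries, at 27.2 and 23.3 FPKM. The log2 fold change of Fosl2 was 1.07 (SE 0.36, limma adjusted p = 0.019), with an adjusted p of 0.051 without CKD 4 and again 0.051 without CKD 6. Without CKD 2, CKD 5 and SZ 3 it was 1.49 (limma adjusted p = 0.0015).

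Ier2 lay between 3.76 and 15.9 FPKM in NC (median 8.68) and between 8.65 and 28.0 in CKD (median 17.4). NC 1, NC 4 and NC 6 overlapped with the lower CKD libraries. The log2 fold change was 1.03 (SE 0.34, limma adjusted p = 0.017), and 0.92 with an adjusted p of 0.061 without CKD 2, CKD 5 and SZ 3.

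Fos, the founding member of the family, lay between 3.68 and 105.8 FPKM in NC (median 19.3), between 14.9 and 83.6 in CKD (median 59.9) and between 2.59 and 23.1 in SZ (median 9.02). The highest of the 18 values was in an untreated kidney, NC 6. The log2 fold change of CKD against NC was 1.23 with a 95% confidence interval from -0.14 to 2.59 (limma adjusted p = 0.12). Fosb, whose protein pairs with JUN as FOS does, had 0.90 (interval -0.30 to 2.11, limma adjusted p = 0.20). Without NC 6 both passed, Fos at 1.72 (limma adjusted p = 0.022) and Fosb at 1.498 (adjusted p = 0.0056). Fos also passed at 1.66 when libraries were scaled to the same FPKM sum and at 1.56 with plain library totals (limma adjusted p = 0.035 and 0.049). Beside these, 6661 of 13875 and 6023 of 13855 genes were called higher, and the median of all genes moved to 0.34 and 0.25.

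Egr1 and Jun did not pass under any alternative run. Egr1 lay between 4.26 and 125.4 FPKM in NC (median 50.3) and between 22.05 and 117.9 in CKD (median 64.7), a log2 difference of 0.70 with an interval from -0.71 to 2.10 (limma adjusted p = 0.40). Jun, which encodes the main partner of FOS, lay between 23.5 and 97.7 FPKM in NC and between 36.1 and 100.3 in CKD. Its log2 fold change was 0.29 with an interval from -0.47 to 1.05 (limma adjusted p = 0.52). Both intervals hold a change of the size called for Ier2.

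**Figure D2:**
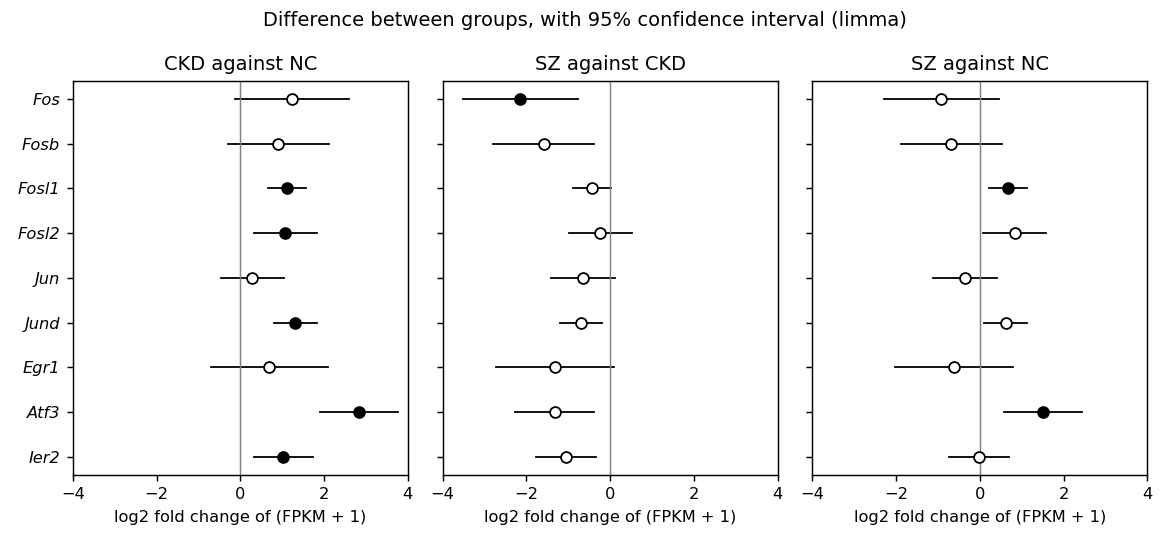
Log2 fold change of FPKM + 1 for each tested member in the 3 comparisons, with 95% confidence intervals. Filled points have a limma adjusted p under 0.05: 5 in CKD against NC, 1 in SZ against CKD and 2 in SZ against NC, with Fosl1, which had to differ from NC by the filter, among the 5 and the 2.

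Fos, Fosb and Egr1 varied more between untreated kidneys than most genes. The standard deviation of log2(FPKM + 1) within NC was 1.80 for Egr1, 1.67 for Fos and 1.57 for Fosb, against a median of 0.18 over all genes tested. Those values ranked 5, 8 and 18 from the highest among 13851 genes. Jun (0.98, rank 135), Atf3 (1.14, rank 69) and Ier2 (0.83, rank 235) also varied widely. Jund and Fosl1, with 0.26 and 0.13, ranked 3711 and 10214. Fosl1 stayed under 1 FPKM in NC, where this scale compresses spread. Its highest NC value was 3.51 times its lowest, against 1.53 times for Jund. In CKD the values were 1.07 for Fos, 1.06 for Fosb and 1.02 for Egr1 against a median of 0.32, with ranks of 129, 137 and 161, so a wide spread of these genes was not particular to NC. In SZ the value was 0.89 for Fos, 0.85 for Egr1 and 0.22 for Fosb, against a median of 0.24. Fosb too stayed under 1 FPKM in SZ, with its highest value 4.32 times its lowest. The difference in spread between groups was not tested.

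**Figure D3:**
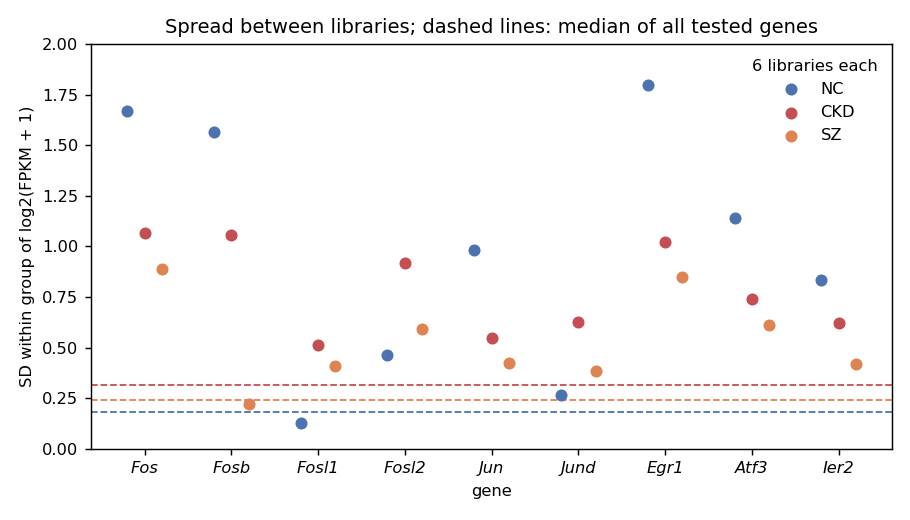
Standard deviation of log2(FPKM + 1) between the 6 libraries of each group for each tested member, with dashed lines at the median over 13851 genes. Egr1, Fos and Fosb in NC stand at 1.57 or more, and Jund and Fosl1 in NC at 0.26 or less. Fosl1 in NC and Fosb in SZ lie under 1 FPKM, where this scale compresses spread.

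The same untreated kidneys were high for most members. NC 6, NC 1 and NC 4 had 106, 37.1 and 29.0 FPKM of Fos, against 9.55, 7.08 and 3.68 in NC 5, NC 3 and NC 2. These were the 3 highest NC libraries for 7 of 9 members, Fos itself included, against 3.64% of all genes tested. The exceptions were Jund, where NC 2 took the place of NC 6, and Fosl1, where NC 4 led and NC 1 was lowest. Mitochondrial transcripts took 19.2%, 24.1% and 19.4% of reads in NC 1, NC 4 and NC 6 and from 14.7% to 21.6% in the other NC libraries. No label gives a collection order or a time from death to freezing, and a part of collection in this spread was not tested.

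Relations of Fos with 5 members were computed within each group of 6 libraries, 15 in all, with exact permutation p-values adjusted over the 15. Fos and Egr1 moved together in NC (Pearson r = 0.96, exact permutation p = 0.0028, adjusted p = 0.021; Spearman rho = 1.00, exact p = 0.0028, adjusted p = 0.021). They did so in SZ by Pearson r = 1.00 (exact p = 0.0083, adjusted p = 0.031), with rho = 0.94 (exact p = 0.017, adjusted p = 0.063). Without the 2 libraries farthest from the median of Fos the r values were 0.99 in NC and 0.92 in SZ. In CKD the r of 0.91 did not pass (exact p = 0.072, adjusted p = 0.13; rho = 0.77, exact p = 0.10, adjusted p = 0.17) and became -0.11 without CKD 2 and CKD 3, so it rests on those samples.

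Fos and Fosb moved together in CKD (r = 0.98, exact p = 0.0028, adjusted p = 0.021; rho = 1.00, exact p = 0.0028, adjusted p = 0.021) and in SZ (r = 0.97, exact p = 0.0083, adjusted p = 0.031; rho = 0.94, exact p = 0.017, adjusted p = 0.063). Without the farthest 2 libraries r was 0.98 and 0.76. In SZ Fosb lay between 0.21 and 0.90 FPKM, where the log2(FPKM + 1) scale of these r values compresses differences. In NC r was 0.91 (exact p = 0.019, adjusted p = 0.058; rho = 0.83, exact p = 0.058, adjusted p = 0.15), and 0.96 without NC 2 and NC 6. The other 9 relations, of Fos with Jun, Atf3 and Ier2, had an adjusted Pearson p of 0.076 or more.

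**Figure D4:**
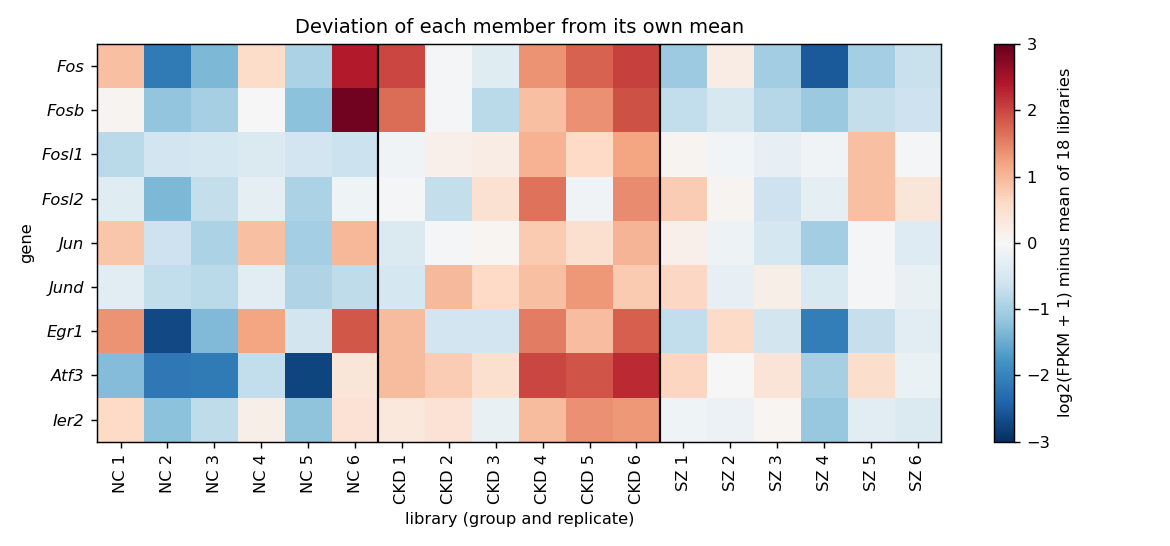
Deviation of log2(FPKM + 1) of each tested member from its mean over the 18 libraries, with libraries in columns and lines between groups. NC 6 is high for Fos, Fosb and Egr1 among untreated kidneys, and CKD 4, CKD 5 and CKD 6 are above the mean for most members.

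Among CKD kidneys a different order held for separate members. CKD 6 was highest for 6 of 9 members. CKD 1 was second for Fos at 81.6 FPKM and for Fosb at 7.34, yet lowest of the 6 for Jun at 36.1, Jund at 80.2 and Fosl1 at 0.862. CKD 3 was lowest for Fos at 14.9, with Jund at 174.

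The effect of SZ-A on top of adenine was read from SZ against CKD. Fos fell, and the other 8 tested members did not pass the test. The count of 1 of 9 members lower and 0 higher stands beside 6.82% of all genes called lower and 4.16% called higher, so the members' count is near the background. Without Fosb and Fosl1 the count was 1 of 7, and these 7 log2 fold changes were all below 0 with a median of -1.05, against a median of 0.01 over all genes, of which 49.2% were below 0. At an unadjusted p under 0.05, 4 of the 7 passed (Atf3, Fos, Ier2 and Jund), beside 29.0% of all genes. The CKD libraries enter both this comparison and that with NC, so high CKD values move the 2 in opposite directions.

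Fos fell from a mean of 53.1 FPKM in CKD (SD 30.4, n = 6) to 10.7 in SZ (SD 6.80, n = 6). Only SZ 2, at 23.1 FPKM, reached above the lowest CKD libraries, CKD 3 at 14.9 and CKD 2 at 18.9. The log2 fold change was -2.14 (SE 0.65, limma adjusted p = 0.042). The call is narrow: it held in 20 of 32 alternatives, with adjusted p between 0.026 and 0.11, and the log2 fold change stayed between -2.44 and -1.84. Single libraries that ended it when left out were CKD 1, CKD 4, CKD 5, CKD 6, NC 4, SZ 1, SZ 4, SZ 5 and SZ 6, and without CKD 2, CKD 5 and SZ 3 the adjusted p was 0.079.

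Several members missed the threshold narrowly. The log2 fold change of SZ against CKD was -1.33 for Atf3 (SE 0.45, limma adjusted p = 0.061), -1.05 for Ier2 (SE 0.34, adjusted p = 0.052) and -0.70 for Jund (SE 0.24, adjusted p = 0.067). Over 32 alternatives Ier2 passed in 12, Atf3 in 8 and Jund in 5. In the alternatives that rescale libraries to the FPKM sum or to plain totals, 5 of 9 members were called lower, beside 12.5% and 12.7% of all genes. They were Fos, Atf3, Ier2, Jund and Fosb, of which Fosb had passed the filter through NC and CKD. These rescalings also moved the median of all genes to -0.12 and -0.10. Jund without CKD 1 gave -0.94 (limma adjusted p = 0.0024). Without CKD 2, CKD 5 and SZ 3 Jund gave -0.51 (limma adjusted p = 0.23).

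Fosb reached 0.900 FPKM at most in SZ, against 3 NC and 5 CKD libraries at 1 or more. Its log2 difference of SZ from CKD was -1.59 (SE 0.57), for a gene that the filter admitted through NC and CKD. Egr1 had a log2 difference of -1.31 (interval -2.72 to 0.10, limma adjusted p = 0.20), with SZ between 7.21 and 49.97 FPKM. Jun had -0.65 (interval -1.41 to 0.12, adjusted p = 0.25) and Fosl1 -0.43 (interval -0.88 to 0.02, adjusted p = 0.19). Fosl2 had -0.24 with an interval from -0.99 to 0.52 (adjusted p = 0.68), and its sign rested on CKD 4, with a value of 0.00037 without it.

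SZ 4 was the lowest SZ library for 7 of 9 members, with 2.59 FPKM of Fos, 7.21 of Egr1 and 7.32 of Atf3. It was not among the 3 highest SZ libraries for any member.

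The comparison of SZ with NC asked what remained different from untreated kidneys. Atf3 rose, 1 of the 7 members without Fosb and Fosl1, beside 12.5% of all genes called higher, and 0 fell, beside 8.61% called lower. With Fosl1, which had to differ by the filter, 2 of 9 were called higher. Atf3 had a log2 difference of 1.51 (SE 0.45, limma adjusted p = 0.023), with NC 4 at 8.99 and NC 6 at 20.6 FPKM inside the SZ range. The call ended without NC 3, NC 5, SZ 1 or SZ 5 (limma adjusted p up to 0.058). None of the 7 members stood wholly higher (0 of 7), beside 8.86% of all genes. Fosl1 had 0.68 (SE 0.21), with every SZ library above every NC library.

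Jund and Fosl2 had log2 fold changes of 0.62 (SE 0.24, limma adjusted p = 0.079) and 0.83 (SE 0.36, adjusted p = 0.11) in SZ against NC. Without CKD 2, CKD 5 and SZ 3 Fosl2 was called higher, at 0.997 (limma adjusted p = 0.026). Fos had -0.92 (interval -2.28 to 0.45, adjusted p = 0.34), Egr1 -0.61 (interval -2.02 to 0.79, adjusted p = 0.56) and Jun -0.36 (interval -1.12 to 0.40, adjusted p = 0.52). Fosb had -0.68 (interval -1.88 to 0.52). Ier2 had -0.03 (interval -0.74 to 0.69, adjusted p = 0.97), a sign that turned under 3 rescalings and 4 left-out libraries.

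The make-up of AP-1 transcripts was described by summing FOS family (Fos, Fosb, Fosl1, Fosl2) and JUN family levels (Jun, Jund, with Junb at 0). JUN family transcripts exceeded FOS family transcripts in every library. The FOS to JUN ratio lay between 0.0678 and 0.801 in NC (median 0.184), between 0.0961 and 0.840 in CKD (median 0.260) and between 0.0912 and 0.239 in SZ (median 0.143). On the log2 scale it differed by 0.36 in CKD against NC (adjusted p = 0.60 over 3 comparisons, raw exact permutation p = 0.60), by -0.87 in SZ against CKD (adjusted p = 0.37, raw exact p = 0.12) and by -0.52 in SZ against NC (adjusted p = 0.58, raw exact p = 0.39), none past the threshold. Without Jund, SZ against CKD had -0.91 (exact p = 0.028, adjusted p = 0.084). CKD against NC then had 1.02 (exact permutation p = 0.078, adjusted p = 0.12) and SZ against NC 0.11 (exact p = 0.77, adjusted p = 0.77).

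Shares differed widely between libraries. Fos made up 35.6% of the summed FOS and JUN levels in NC 6 and 38.1% in CKD 1, against 3.45% in NC 2 and 2.21% in SZ 4. Jund took from 22.6% to 64.2% in NC, from 37.5% to 75.7% in CKD and from 55.6% to 73.1% in SZ.

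**Figure D5:**
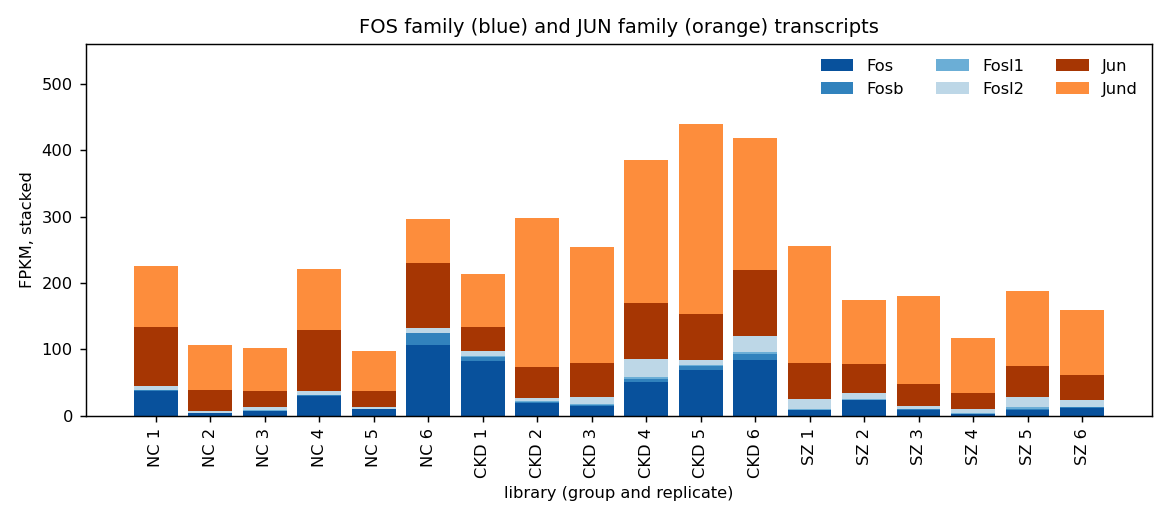
Stacked FPKM of FOS family (blue) and JUN family (orange) genes in each library, with Junb left out because it is listed at 0. Jund forms the largest block in most libraries, and Fos forms a large one in NC 6 and CKD 1.

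Of the other immediate early transcription factors, 11 of 16 tested rose in CKD against NC and 0 fell, with a median log2 fold change of 0.63. Over all genes tested, 24.4% were called higher and 26.0% lower in CKD against NC, shares that also stand beside the lists that follow. Egr2, a relative of Egr1, rose from a mean of 1.30 FPKM (SD 2.03, n = 6) to one of 13.8 (SD 5.98, n = 6), with a log2 difference of 2.91 (SE 0.36, limma adjusted p = 4.2e-06). Myc, which drives growth, rose by 1.55 (SE 0.29, limma adjusted p = 0.00022). The zinc finger factor genes Klf6 and Klf4 rose by 1.94 (SE 0.24, adjusted p = 3.5e-06) and 0.51 (SE 0.17, adjusted p = 0.021). Egr3 stood at 1.19 FPKM or more in CKD and 0.649 or less in SZ, with an NC median of 0.171. The filter therefore admitted it through CKD, and its log2 difference of 1.22 (SE 0.23) is given with no p. It is counted among the 11. Nr4a1, an orphan nuclear receptor gene, had -0.72 (SE 0.69, adjusted p = 0.40), with NC between 5.58 and 95.7 FPKM and CKD between 2.01 and 53.9.

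In SZ against CKD 5 of those 16 fell, Egr2, Egr3, Ier5, Klf2 and Nfil3, and 0 rose. Here and for the lists that follow, the shares of all genes are 6.82% called lower and 4.16% called higher in SZ against CKD. Egr2 had a log2 difference of -1.60 (SE 0.36, limma adjusted p = 0.013), with every SZ library below every CKD library, beside 1.63% of all genes. Egr3, counted among the 5, had -1.04 (SE 0.23), given with no p because the filter admitted it through CKD and not SZ. Srf, whose protein binds the CArG box, had 0.21 in CKD against NC (SE 0.11, limma adjusted p = 0.11) and -0.17 in SZ against CKD (SE 0.11, adjusted p = 0.29).

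Of the other AP-1 and leucine zipper partners, 7 of 14 tested rose in CKD against NC and 0 fell, and 5 fell in SZ against CKD. Cebpd, an acute phase factor, went from 14.9 FPKM (SD 9.36, n = 6) to 56.9 (SD 21.0) and 17.6 (SD 8.59) in NC, CKD and SZ. Its log2 fold changes were 2.03 (SE 0.38, limma adjusted p = 0.00026) and, for SZ against CKD, -1.69 (SE 0.38, adjusted p = 0.013). Cebpb had 1.53 (SE 0.40, limma adjusted p = 0.0042) and -1.30 (SE 0.40, adjusted p = 0.046). Batf, a partner in lymphocytes and myeloid cells, stood at 0.486 FPKM or less in NC, 1.53 or more in CKD and 0.690 to 2.62 in SZ. The filter therefore admitted it through CKD and SZ, and it had to differ from NC. Its 1.75 in CKD against NC (SE 0.25) is given with no p, and it is counted among the 7. In SZ against CKD Batf had -0.85 (SE 0.25, limma adjusted p = 0.040). Maff rose by 0.99 in CKD (SE 0.23, limma adjusted p = 0.0019) and had -0.05 in SZ against CKD (SE 0.23, adjusted p = 0.90). Atf4, the factor of the integrated stress response that can induce Atf3, had 0.07 in CKD against NC (SE 0.18, limma adjusted p = 0.78).

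Immediate early genes that encode other kinds of protein had 10 of 19 higher and 2 lower in CKD against NC, and 5 lower in SZ against CKD. Ier3 rose by 1.19 (SE 0.32, limma adjusted p = 0.0043), while Btg2 had 0.77 (SE 0.45, adjusted p = 0.16), Zfp36, which destabilises cytokine mRNA, 0.18 (SE 0.48, adjusted p = 0.78) and Ccn1 0.43 (SE 0.41, adjusted p = 0.40). The 2 that fell were Arc and Sgk1.

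Feedback inhibitors had 8 of 16 higher and 1, Spry4, lower in CKD. Nab2, a corepressor of EGR1, rose by 0.61 (SE 0.16, limma adjusted p = 0.0042) and fell in SZ against CKD with a log2 difference of -0.51 (SE 0.16, adjusted p = 0.047). Dusp6, a phosphatase of ERK, had 0.22 (SE 0.24, limma adjusted p = 0.46) and Errfi1 -0.67 (SE 0.34, adjusted p = 0.11). Dusp1 and the heat shock genes Hspa1a and Hspa1b were looked for but are not listed under these names in the deposited table.

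Upstream kinases and SRF cofactors had 5 of 22 called higher and 5 lower in CKD against NC, with a median of -0.05. Both counts are near the shares of all genes, 24.4% higher and 26.0% lower. Elk3, an SRF cofactor, rose by 1.12 (SE 0.13, limma adjusted p = 1.9e-06) and Mapk8, which encodes the kinase JNK1, fell by 0.26 (limma adjusted p = 0.048). Of 19 genes that AP-1 or EGR1 are known to activate, 15 rose and 1, Ptgs2, fell in CKD, and 11 fell in SZ against CKD. Beside these stand 24.4% of all genes called higher in CKD and 6.82% called lower in SZ against CKD. Timp1, whose protein blocks matrix-degrading enzymes, rose by 4.23 (SE 0.28, limma adjusted p = 5.5e-09). Mmp3 did not pass the filter and stood at no more than 0.538 FPKM. Of 8 heat shock genes tested, 1 rose and 3 fell.

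Markers of other cells moved with the same comparisons. All 12 macrophage markers rose in CKD against NC, beside 24.4% of all genes, and 10 fell in SZ against CKD, beside 6.82%. Their summed level lay between 131 and 253 FPKM in NC, 1174 and 2618 in CKD, and 493 and 1102 in SZ. In CKD against NC 8 of 9 fibroblast and mural markers rose, with sums of 90.2 to 206 FPKM in NC, 397 to 972 in CKD and 228 to 446 in SZ, and 7 of 8 proximal tubule markers fell. Of 7 neutrophil markers 3 were tested and 3 rose, and the sum was 7.46 FPKM or less in NC and between 5.93 and 26.8 in CKD. Mitochondrial transcripts took between 14.7% and 24.1% of reads in NC, 5.86% and 16.0% in CKD and 11.1% and 18.4% in SZ. Their part in the changes of Atf3, Fosl2, Jund, Ier2 and Fos was not tested.

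For 5 members the genes with the most similar levels over the 18 libraries were taken among 11678 named genes, by Pearson r as a description that includes the group differences. For Fos these were Nfkbia (r = 0.86), Zfp36 (0.85) and Rgs1 (0.80), and for Egr1 Zfp36 (r = 0.92), Btg2 (0.86) and Nfkbia (0.85). For Atf3 they were Nfkbiz (r = 0.97), Egr2 (0.96) and Il1b (0.95). For Jund they were Marchf3 (r = 0.96), Btg1 (0.95) and Rtn4rl2 (0.95), and for Fosl2 Cemip2 (r = 0.92), Gpc6 (0.91) and Zbtb38 (0.90).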

How the data were processed

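Kidney RNA of 18 libraries was analysed. The authors deposited 1 table of FPKM values per gene and library; HISAT2 2.0.5 and the build mRatBN7.2 are named in the submitters' processing notes, while the sources used here name no counting program, strand setting or annotation release. Products of FPKM and gene length came out as whole reads (tolerance 0.01) for 100% of values above 0, which gave reads per gene and depth. The sizes the authors divided by averaged 0.896 of those totals in NC, 1.14 in CKD and 1.04 in SZ. That scaling centres most genes: 48.4% of genes called in CKD against NC were higher as deposited, 84.0% after scaling to one FPKM sum and 77.8% with plain totals, which moved the median gene to 0.34 and 0.25 log2 units (in SZ against CKD 37.9%, 14.4% and 17.7%, and -0.12 and -0.10; in SZ against NC 59.1%, 93.0% and 88.4%, and 0.22 and 0.15).

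The program limma (3.58.1, under R 4.3.3) fitted log2(FPKM + 1) to the means of the 3 groups, with a trend of variance on level. Tests were two-sided and p-values were adjusted by Benjamini-Hochberg over all genes of a comparison. Single values were put to exact permutation tests in scipy 1.17.1. The fit was checked on simulated data. The members and lists were chosen with earlier results of these data known. Genes named are the 10 members, 27 genes fixed by name from the lists (1 is not reported here) and the 3 genes most like each of 5 members; Arc, Sgk1, Spry4, Ptgs2, Ier5, Klf2 and Nfil3 were named after their values were seen. Alternatives were another pseudocount (0.1), filter, scaling, variance model or set of samples, sample weights, voom on recovered reads, a gene length correction and a replicate block.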

Additional observations from a re-analysis of the deposited data

Results flagged for a closer look

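In a group of 6, a highest or lowest value was looked at again where its gap to the next, as a share of the range, exceeded Dixon's 95% critical value. With normally distributed values chance does so in about 1 in 20 groups. The rule was applied to FPKM and ratios without logs, so that rate need not hold here. Of 30 groups checked, 4 had such a value, and 3 of them belong to NC 6. Fos in NC 6 stood at 105.8 FPKM, with a gap of 0.673 of the NC range. Fosb in NC 6 stood at 18.5 FPKM (gap 0.909), against 1.78 in NC 1, the next highest. The ratio of FOS to JUN family levels in NC 6 was 0.801 (gap 0.752), and as it includes Fos and Fosb it is not a separate flag. Fosl1 in SZ 5 stood at 2.72 FPKM (gap 0.798), against 1.11 in SZ 1.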

How the results depend on the processing

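Each of 27 member differences was recomputed under 32 alternatives (31 for Fosb and Fosl1, which a mean FPKM of at least 5 leaves out). Atf3 and Jund were called higher in CKD against NC in all of them (Fosl1 too, which had to differ by the filter); Ier2 in 31 of 32 and Fosl2 in 30. Signs turned for Ier2 in SZ against NC (0.25 at one FPKM sum, 0.082 without the 20 most abundant genes, 0.17 with plain totals, and -0.21 to 0.16 with single libraries left out) and for Fosl2 in SZ against CKD (-0.47 to 0.00037 with single libraries left out). Without Jund the family ratio of SZ against NC turned to 0.11.

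Members called in SZ against CKD numbered 1, and 0 without a filter or without CKD 2, CKD 5 and SZ 3; 2 at a mean FPKM of at least 5, with voom, with the replicate block or after length correction; 3 with array weights; 4 in a fit of the 2 groups; 5 at one FPKM sum or plain totals; and 0 to 4 with single libraries left out (4 without SZ 3; 0 without NC 4, CKD 4, CKD 5, CKD 6, SZ 1, SZ 4, SZ 5 or SZ 6). Members called in SZ against NC numbered 2, and 1 at a mean FPKM of at least 5, 3 at one FPKM sum, without the 20 most abundant genes, with plain totals or without those 3 libraries, 4 in a fit of the 2 groups or with array weights, and 0 to 3 with single libraries left out (0 without SZ 1 or SZ 5; 1 without NC 1, NC 3, NC 5 or NC 6). For CKD against NC it was 4 to 7 with single libraries left out. These counts are of all tested members. Fosb was among those called in SZ against CKD with the replicate block, in a fit of the 2 groups, at one FPKM sum and with plain totals. Fosl1 was among those called in SZ against NC in 27 of its 31 alternatives. Over all genes, 6973, 1521 and 2919 were called in CKD against NC, SZ against CKD and SZ against NC; 4447 and 1627 in the first and last at a mean FPKM of at least 5 (fewer genes tested), 554 in SZ against CKD in a fit of the 2 groups, and 2830 and 5492 in the SZ comparisons with array weights. For SZ against CKD 2798 were called without CKD 1, 1010 without CKD 3, 669 without CKD 5, 831 without SZ 1, 850 without SZ 2, 3058 without SZ 3 and 533 without SZ 4. Single libraries left out gave 6372 to 7387, 533 to 3058 and 2186 to 3365, and family ratios of 0.01 to 0.76, -1.16 to -0.53 and -0.83 to -0.12. Where no construction shows it, the cause was not tested.

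Over all genes the replicate numbers showed little sign of pairing: 4 of 18 same-numbered pairs correlated over 0.1 and 1 of 18 libraries correlated best with its own number. The r values ran from -0.36 to 0.23, the highest for CKD 6 with NC 6. Correlations over all genes cannot settle pairing for single members, and a shared order or batch by number was not tested. With the replicate block 6636, 1195 and 2584 genes were called. Depth limits Fosb and Fosl1, each with as few as 7 reads in a library.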

Other observations

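The NC libraries that were highest for Fos, NC 1, NC 4 and NC 6, were also the 3 highest for genes of the same response outside the members. This held for 10 of 16 feedback inhibitors, 11 of 19 other immediate early genes that are not transcription factors, 7 of 16 other immediate early transcription factors and 6 of 14 AP-1 partners. It held for 1 of 22 upstream kinases and SRF cofactors, 1 of 19 AP-1 and EGR1 target genes, 0 of 8 heat shock genes, 0 of 12 macrophage markers and 0 of 8 proximal tubule markers, against 3.64% of all genes tested. The pattern was seen in these libraries and carries no test.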
